A study of Arabidopsis thaliana with 16 samples.

Results

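Air-only peaks are the 436 of 841 peaks (51.8%) of EIN2 antibody chromatin immunoprecipitation (ChIP) in Col-0 seedlings titled air that overlapped no peak of the Col-0 library titled ethylene by 1 bp or more, on chromosomes 1 to 5. The other 405 air peaks overlapped an ethylene peak and are called shared. The ethylene library held 1510 peaks, of which 1185 overlapped no air peak and are called ethylene-only. Because the peaks were selected on the peak calls of these 2 libraries, their number, enrichment and width are descriptions, and no test was made of them. Each Col-0 condition had 1 library, so no difference between air and ethylene has a replicate check.

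All samples were whole Arabidopsis thaliana seedlings, 3 days old and dark-grown at 24 °C, kept for 4 h in hydrocarbon-free air or in that air with 10 ppm ethylene. The ChIP seedlings had the EIN2C-EIN3DB transgene either in wild-type Col-0 (1 air and 1 ethylene library, each with its input) or in the ein3-1 eil1-1 double mutant (2 air and 2 ethylene libraries, with 1 input per treatment). RNA was sequenced, in air, from EIN2C-EIN3DB, EIN2C-EIN3DB-K245N and EIN2-S645A, all in ein3-1 eil1-1, with 2 libraries per line pooled by the authors to 1 value. By its name, EIN2C-EIN3DB joins the carboxyl-terminal part of EIN2 to the DNA binding domain of EIN3. K245N names a substitution within EIN3 and S645A one within EIN2. Neither the promoter of the transgenes nor the number of independent lines is given in the sources read. The RNA and the Col-0 ChIP thus came from different backgrounds, and each RNA value is a ratio to Col, whose treatment the sources read do not give.

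Some labels go against each other. For Col-0, the ChIP library titled air and its input carry an agent label of ethylene, and the Col-0 ethylene input carries a genotype label of ein3-1 eil1-1. Groups follow the titles. The Col-0 air library was the shallowest of the 6, with 3743192 tags kept after removal of duplicates against 4713282 in Col-0 ethylene and 6205149 to 10515608 in ein3-1 eil1-1. Its share of redundant tags was the highest, at 0.61 against 0.56 and 0.20 to 0.30.

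EIN2 is a membrane protein at the endoplasmic reticulum that carries the ethylene signal. After ethylene is perceived its carboxyl-terminal part is released and enters the nucleus, where EIN3 and EIL1, the leading transcription factors of the pathway, switch on ethylene response genes. Without ethylene the receptors keep the kinase CTR1 active, EIN2 is phosphorylated at sites that include S645, and EIN3 is degraded. Dark-grown seedlings keep most photosynthesis genes low until light arrives, and EIN3 is among the factors known to act in that state.

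Air-only peaks were weak and narrow beside shared peaks. Their fold enrichment, which is the pileup of tags at the summit over the local input level, had a median of 3.11 and ran from 2.001 to 6.03, where shared peaks had a median of 3.14 and ethylene-only peaks of 3.01. Median pileup was 14 tags (9 to 61) against 19 in shared air peaks, and 405 of the 436 air-only peaks (92.9%) had a pileup under 20. Fold enrichment thus differed little between the sets, and the number of tags behind it was lower in air-only peaks. Median width was 110 bp (79 to 589 bp) against 170 bp in shared peaks. The smallest possible width is the authors' fragment length, 79 bp, and 60 air-only peaks (13.8%) had it, against 16 shared peaks (3.95%). Scaled to the tags kept, the median pileup per 1000000 tags was 3.74 in air-only, 5.08 in shared and 3.61 in ethylene-only peaks.

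The share of air peaks that lacked an ethylene peak fell with the strength of the air peak. Among air peaks with a −log10 p of 3 to 4 it was 69.8% (97 of 139, exact 95% binomial interval 61.4 to 77.3%), and among those of 8 or more it was 10.1% (16 of 159, 5.86 to 15.8%). These intervals, like all others here, cover counting error only. A −log10 q of 2 or more was given for 136 air-only peaks (31.2%), 278 shared peaks (68.6%) and 703 ethylene-only peaks (59.3%). At a −log10 q of 5 or more there were 11 air-only and 119 shared peaks. The authors' threshold was a p of 0.001, so a region just below it in ethylene counts as lacking a peak. Whether depth sets the absence of an ethylene peak was not tested.

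**Figure D1:**
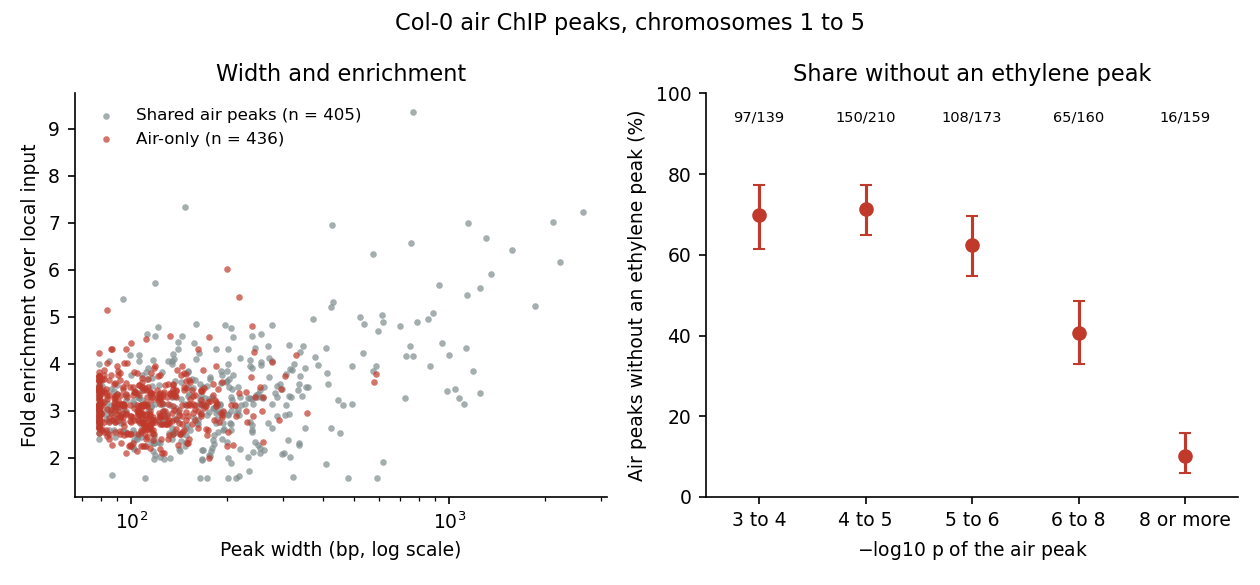
Left, each point is 1 Col-0 air peak, with its width in bp on a log scale against its fold enrichment over local input. Right, the percentage of air peaks without an ethylene peak by −log10 p of the air peak, with exact 95% binomial intervals and the counts printed above. Air-only peaks crowd at small widths, and their share is 69.8% in the weakest class and 10.1% in the strongest.

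The distance from an air-only peak to the nearest ethylene peak varied widely. The median distance was 19801 bp, with a range of 9 to 300046 bp. Within 500 bp lay 59 peaks (13.5%) and within 100 bp 18. Distances were not compared with those of random positions, so none is called near or far by this. Nearest were a peak inside APX1, a cytosolic ascorbate peroxidase, at 9 bp (chr1:2438154-2438347, TAIR10, fold enrichment 2.98), peaks in COL5 at 15 bp and ATMS1 at 16 bp. Just outside the rule were shared peaks with an overlap of 1 bp (200 bp from PHOT1, a blue light receptor gene), 2 bp (in XYL4) and 3 bp (in LHCA4), of fold enrichment 4.00, 2.54 and 2.95. The cases just inside had fold enrichments of 2.82 to 2.98, and of those just outside 1 was lower and 1 well above. Chromosomes 1 to 5 held 131, 68, 71, 73 and 93 air-only peaks. On chromosome 1 lay 30.05% of air-only, 17.8% of shared and 25.1% of ethylene-only peaks.

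**Figure D2:**
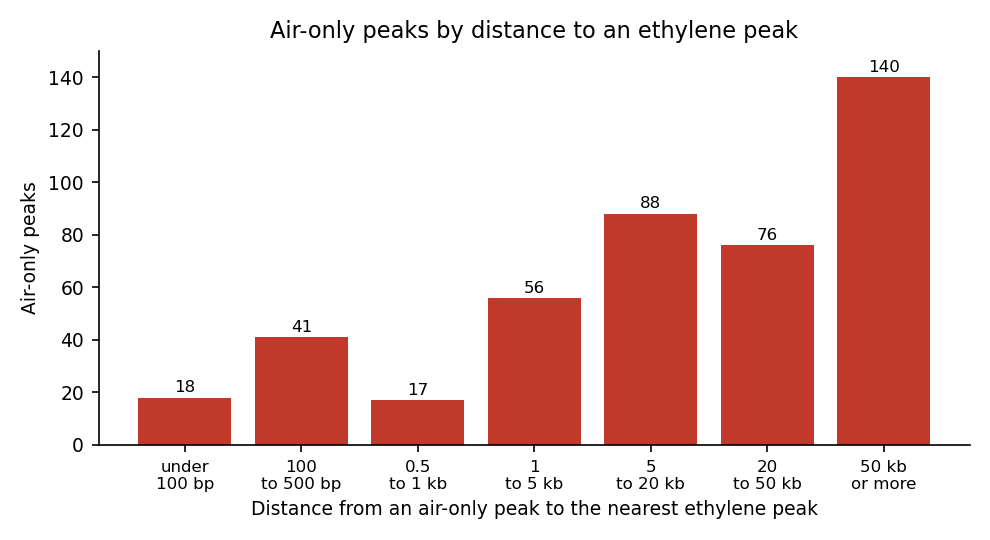
The number of air-only peaks (bars, of 436) in each class of distance to the nearest Col-0 ethylene peak. The class of 50 kb or more holds 140 peaks, and 18 peaks lie under 100 bp away.

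The ein3-1 eil1-1 libraries, which the rule did not use, held few of the air-only peaks. Air replicates 1 and 2 had a peak at 4 and 5 of the 436, and ethylene replicates 1 and 2 at 9 and 7. A peak in either air replicate was found at 8 air-only peaks (1.83%, 0.795 to 3.58%), against 117 of 405 shared peaks (28.9%, 24.5 to 33.6%) and 26 of 1185 ethylene-only peaks (2.19%, 1.44 to 3.20%). With all 4 libraries counted it was 15 air-only peaks (3.44%), 146 shared peaks (36.0%) and 33 ethylene-only peaks (2.78%). Over all strengths the intervals of air-only and ethylene-only peaks overlapped, and those of shared peaks lay above both. The share was also compared at like −log10 p, without matching the sets for input level. Of peaks with a −log10 p of 5 to 6, 0 of 108 air-only and 12 of 65 shared peaks (18.5%) met a peak in any of the 4, where a count of 0 allows up to 3.36% (exact 95% interval). Among those with a −log10 p of 8 or more it was 5 of 16 (31.3%, 11.0 to 58.7%) and 93 of 143 (65.0%, 56.6 to 72.8%), and 12 of 140 ethylene-only peaks (8.57%, 4.51 to 14.5%). At a −log10 p of 6 to 8 it was 7 of 65 air-only (10.8%, 4.44 to 20.9%), 30 of 95 shared (31.6%, 22.4 to 41.9%) and 6 of 251 ethylene-only peaks (2.39%, 0.882 to 5.13%). In these stronger classes the air-only share thus lay between the other two, with intervals that overlap that of ethylene-only peaks. The 5 recovered air-only peaks of 8 or more include chr2:3607091-3607213, chr4:3954019-3954097, chr5:11704302-11704380 and chr5:11733080-11733186. At these the input level, implied by pileup and fold enrichment, was 5.60 to 8.15 times the genome mean. None of them, nor chr1:15297993-15298079 at 1.27 times, had a gene within 1000 bp.

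**Figure D3:**
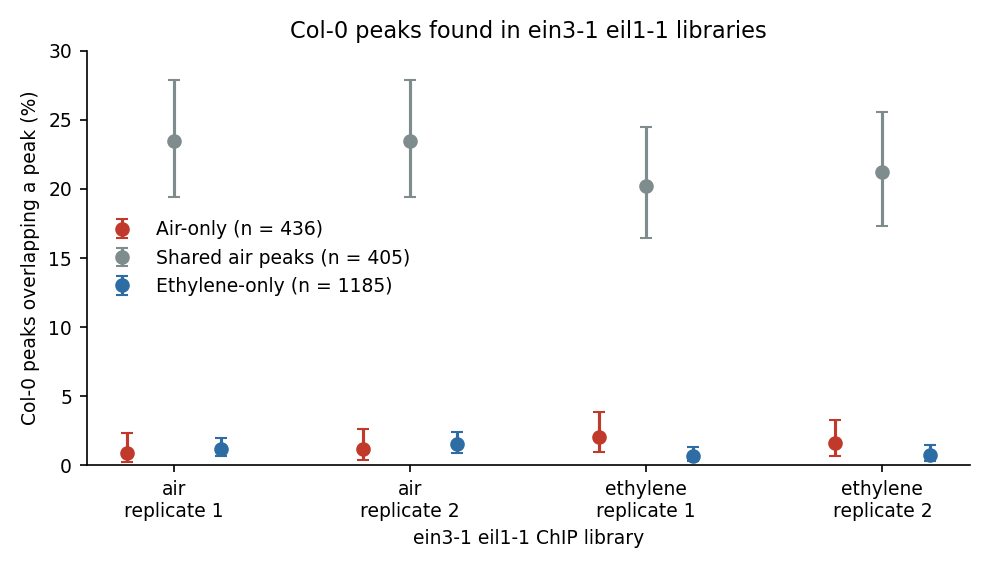
The percentage of Col-0 peaks that overlap a peak by 1 bp or more in each of the 4 ein3-1 eil1-1 ChIP libraries, with exact 95% binomial intervals. Air-only peaks lie between 0.917% and 2.06%, and shared air peaks between 20.2% and 23.5%.

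One air-only peak was found in both air replicates, and in all 4 ein3-1 eil1-1 libraries: chr2:3626036-3626184 in AT2G08986, with a fold enrichment of 3.47 and an ethylene peak 1357 bp away. The input level implied there was 2.50 times the genome mean. Of the 15 air-only peaks found in any of the 4 libraries, 6 were among the 17 air-only peaks whose implied input was at least 3 times the genome mean, and 9 were among the other 419. The 17 with high input include the peak of highest pileup (61, chr2:3607091-3607213, implied input 8.15 times the mean, no gene within 1000 bp). Among the 9 others were peaks in LHCB5, APX1, CYP81F4 and ADC2. Whether input level accounts for these recoveries was not tested.

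Air-only peaks lay mostly in genes. A gene of any kind, or its flank of 1000 bp on either side, was met by 413 peaks (94.7%), where genes and flanks cover 89.0% of the chromosomes. Inside a protein-coding gene lay 316 peaks (72.5%, 68.0 to 76.6%), above the 54.1% of the chromosomes that such genes cover, beside 69.6% of shared and 68.5% of ethylene-only peaks. All 3 sets thus lay above the covered share. Pseudogenes held 7 air-only peaks (1.61%) and 25 shared peaks (6.17%), and cover 8.78% of the chromosomes. A tRNA gene or its flank was met by 12 air-only peaks (2.75%), 7 shared (1.73%) and 9 ethylene-only peaks (0.759%), with overlapping intervals between air-only and shared peaks.

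Together the air-only peaks touched 670 genes, of which 563 were protein-coding (2.05% of 27444), and 322 of these had a peak inside. A peak can touch neighbours that both count, as 188 of the 436 did. Of the 563 genes 110 (19.5%) also had an ethylene peak elsewhere in the gene or flank, against 4.82% of all protein-coding genes; those 110 are 8.31% of the genes with an ethylene peak. For these 110 genes the absence of an ethylene peak at an air-only peak is therefore not its absence from the gene. The other 453 had no ethylene peak in the gene or flank. There were 30 protein-coding genes with 2 or more air-only peaks.

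In each line, the 563 protein-coding genes at air-only peaks were listed more often, both higher and lower, than all 27444 protein-coding genes. The deposited tables list only genes that differ 2-fold or more at a q-value below 0.05, and the number of genes the authors tested is not known here, so all protein-coding genes serve as the background. For EIN2C-EIN3DB 72 genes (12.8%) were listed higher and 86 (15.3%) lower in the authors' deposited table, where the background was 9.93% and 9.7%. For EIN2C-EIN3DB-K245N 68 genes (12.1%) were higher and 43 (7.64%) lower by the authors' deposited table, against 6.41% and 6.33%. For EIN2-S645A 120 genes (21.3%) were higher and 97 (17.2%) lower in the authors' deposited table, against 11.8% and 13.9%. In EIN2C-EIN3DB-K245N the lower share was thus near the background (interval 5.58 to 10.2%), and the higher share was not (9.50 to 15.1%).

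Genes at ethylene-only peaks were more often listed lower than higher in each line. They were listed higher in 8.20%, 8.20% and 16.3% and lower in 20.5%, 13.7% and 23.3% in the authors' deposited tables for the 3 lines, in the order above. Genes at shared peaks were higher in 11.1%, 12.1% and 17.6% and lower in 20.4%, 12.1% and 21.4%, likewise in the authors' deposited tables. Among listed genes at air-only peaks 54.4%, 38.7% and 44.7% were lower, and among those at ethylene-only peaks 71.4%, 62.6% and 58.9%, in the authors' deposited tables. Among all listed protein-coding genes it was 49.4%, 49.7% and 54.0%. Genes at air-only peaks thus lay above that share in EIN2C-EIN3DB and below it in EIN2C-EIN3DB-K245N and EIN2-S645A. Genes can be at peaks of more than 1 set, and the difference between sets was not tested.

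Listed genes at air-only peaks had higher levels than listed genes as a whole. The median level in the line was 26.1, 33.2 and 34.0 FPKM (fragments per kilobase of transcript per 1000000 mapped), against 12.5, 11.7 and 12.3 FPKM for all listed protein-coding genes, in the authors' deposited tables. For shared peaks it was 36.8, 71.0 and 53.3 FPKM, and for ethylene-only peaks 21.9, 23.6 and 27.2 FPKM, in the authors' deposited tables. The part of transcript level in being listed or in holding a peak was not tested. Where the 110 genes with an ethylene peak elsewhere were set apart, the other 453 were listed higher in 12.6%, 10.6% and 20.1% and lower in 14.3%, 7.28% and 16.8%, in the authors' deposited tables.

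**Figure D4:**
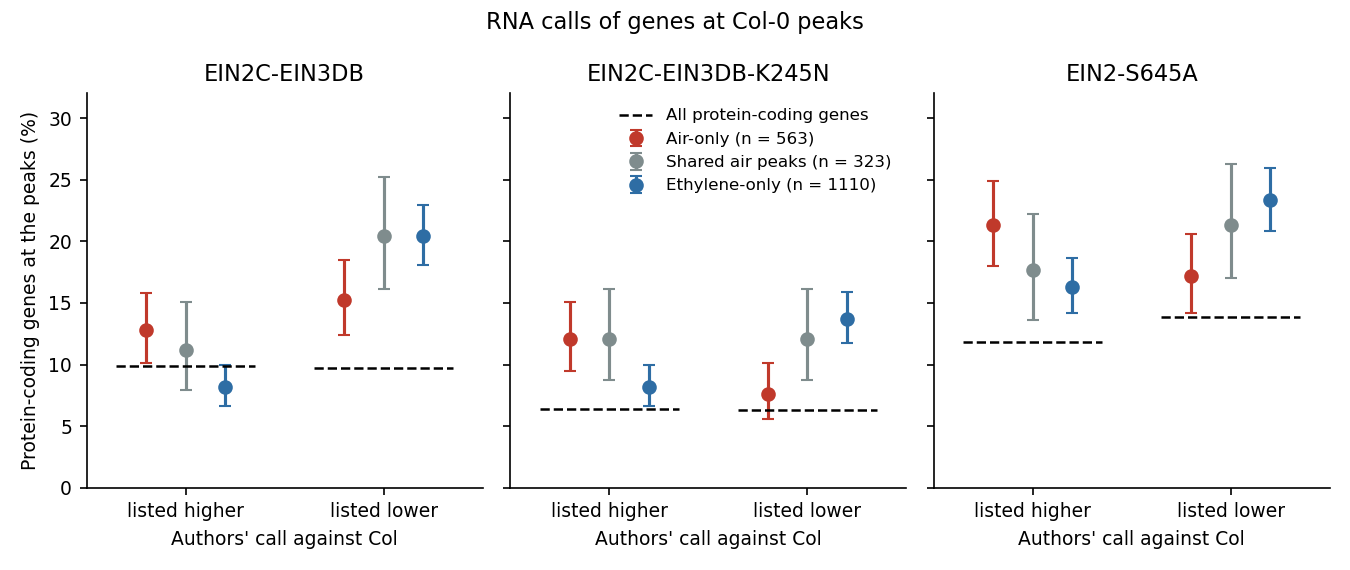
The percentage of protein-coding genes at each set of Col-0 peaks that the authors' deposited tables list higher or lower than Col, with exact 95% binomial intervals, in 3 lines. Dashed lines give all 27444 protein-coding genes. Genes at air-only peaks lie above the dashed line for higher calls in each line, at 12.8%, 12.1% and 21.3%. They also lie above it for lower calls, at 15.3%, 7.64% and 17.2%, where the interval of EIN2C-EIN3DB-K245N holds the dashed line.

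The strongest air-only peak lay in ELO3, which encodes the histone acetyltransferase subunit of the Elongator complex. It had a fold enrichment of 6.03, a pileup of 20 and a width of 200 bp (chr5:20482327-20482526), at an input equal to the genome mean (ratio 1.00). The same gene held a shared air peak of 3.498 and an ethylene-only peak of 3.14, 733 bp from the air-only peak. ELO3 was not listed in any of the authors' deposited tables of RNA. Next came LHCA4 (5.42, chr3:17493538-17493755), a photosystem I antenna gene, CAB2 (5.14, chr1:10475020-10475103), a photosystem II antenna gene, and RCA (4.81, chr2:16571213-16571451), which encodes Rubisco activase. These 4 peaks had 17 to 20 tags at the summit, so their folds rest on few tags.

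FLS1, a flavonol synthase gene, followed at 4.59 and DJ1A at 4.56. A peak of 4.53 lay where AT2G22730 and SUVH6, a histone H3 lysine methyltransferase gene, overlap, so it cannot be given to either. SUVH6 was listed lower in EIN2C-EIN3DB and EIN2-S645A, at a log2 ratio of -1.31 and -1.32, in the authors' deposited tables. TMT2, a vacuolar sugar transporter gene, had 4.44 in a region it shares with AT4G35295. MIR319a, the precursor of a microRNA against TCP transcription factors, and a region of chromosome 1 with no gene within 1000 bp (chr1:15297993-15298079) each had 4.32. LRX3, a cell wall extensin gene, had 4.31, a region of chromosome 3 without a gene (chr3:11725286-11725447) 4.30, LHCB5 4.25, LHB1B1 4.22 and ADC2, an arginine decarboxylase gene of polyamine synthesis, 4.18. Of these 15 peaks of highest fold enrichment, 4 lay in antenna genes, a group drawn up after the members were seen, and 1 in RCA.

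The widest air-only peaks were those in SAMDC, an S-adenosylmethionine decarboxylase gene of polyamine synthesis (589 bp, fold enrichment 3.78), CAB3 (579 bp, 3.601), LHCB3 (356 bp, 2.95), ADC2 (330 bp, 4.18) and OLEO2, an oleosin gene of seed oil bodies (304 bp, 3.73). Antenna and polyamine genes took 4 of the 5 places, but both groups were drawn up after these peaks were seen. That count is therefore a description only. At ADC2 an air peak of 1348 bp and fold enrichment 5.90 overlapped an ethylene peak of 1330 bp and 4.55, and both air-only peaks of the gene lay beside it, the nearer at 44 bp. At SAMDC an ethylene peak lay 164 bp away. Of 7 polyamine synthesis genes, a group drawn up after the members were seen, 3 were at air-only peaks (ADC2, SAMDC and, 8 bp outside the gene, SPDS1), beside 2.05% of all protein-coding genes. Of the 3, ADC2 and SAMDC also had an ethylene peak.

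Light-harvesting antenna genes stood out among the genes at air-only peaks. The group was drawn up after the members had been seen, from gene names, and carries no test. Antenna proteins bind chlorophyll and pass light energy to photosystem I (LHCA) and photosystem II (LHCB). Of 21 antenna genes 13 (61.9%) held an air-only peak, where 2.05% of all protein-coding genes were at one, and all 13 had it inside the gene. Shared peaks were at 3 antenna genes and ethylene-only peaks at 0, with 11 of the 13 lacking any ethylene peak in the gene or flank. The exceptions were LHB1B2 and LHCA4, which held 1 and 2 shared air peaks beside the air-only ones.

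Photosystem II antenna genes at air-only peaks were CAB2, CAB3, LHB1B1 and LHB1B2, which encode the major protein LHCB1, LHCB3, and the minor antenna genes LHCB4.1, LHCB4.2, LHCB5 and LHCB6. CAB2 held 3 air-only peaks, of fold enrichment 5.14, 3.94 and 3.68, with pileups of 17, 13 and 12. LHB1B1 had 4.22, CAB3 3.601 and LHB1B2 3.498. LHCB1 copies are near-identical, and the sources read do not say how the authors placed reads that match several copies. The neighbouring copy CAB1 had a shared air peak of 3.95 with an ethylene peak of 3.39. LHCB5 had 4.25, LHCB6 3.39, LHCB3 2.95, LHCB4.2 2.80 and LHCB4.1 2.26, the lowest of the group. Photosystem I antenna genes were LHCA1 (3.65), LHCA2 (2.92), LHCA3 (3.49) and LHCA4 (5.42 and 3.46). The LHCA4 peak of 3.46 also lay inside the neighbour ATSMC2.

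In RNA, which the rule did not use, antenna genes at air-only peaks were listed higher than Col wherever they were listed. Of the 13, 9 were listed higher in EIN2C-EIN3DB in the authors' deposited tables, 11 in EIN2C-EIN3DB-K245N and 13 in EIN2-S645A, and 0 were listed lower. The 3 tables share Col, so they are not independent of each other. LHB1B1 led, at 773 FPKM in EIN2C-EIN3DB, 1152 in EIN2C-EIN3DB-K245N and 4777 in EIN2-S645A, with log2 ratios to Col of 9.59, 10.57 and 12.58 in the authors' deposited tables. CAB2 came with log2 ratios of 5.66, 7.82 and 10.40, LHB1B2 with 5.97, 6.18 and 7.48, and CAB3 with 4.75, 5.53 and 7.40, in the authors' deposited tables. These 4 LHCB1 genes thus had the highest ratios of the group in each line, and reads of one copy cannot be told apart from those of another here. For LHB1B1 and CAB2 the line levels and ratios imply a low level in Col, so these ratios rest on a small denominator. The authors' Cuffdiff q-values in EIN2C-EIN3DB-K245N and EIN2-S645A were 0.0208 and 0.0182 for LHB1B1, and 0.00501 and 0.00438 for CAB2. For LHB1B2 and CAB3 they were 0.000315 and 0.000224. Among the 13, the genes outside LHCB1 had smaller ratios: LHCA1 had 2.64, 3.22 and 3.84, and LHCB5 1.64, 1.47 and 1.95, in the authors' deposited tables. LHCB6 and LHCB4.1 were listed in EIN2-S645A alone, at log2 ratios of 2.56 and 1.87 in the authors' deposited table. Of the 8 antenna genes without an air-only peak, the authors' deposited tables list 3, 4 and 5 higher and 1, 1 and 0 lower in the 3 lines. Among these 8, LHCB2.2 had log2 ratios of 3.65, 4.62 and 6.85 and LHCB2.1 of 2.78, 3.85 and 6.13 in the authors' deposited tables. Both were above LHCA1 in each line, and neither had a Col-0 peak in the gene or flank. The LHCB1 copy CAB1 had 2.76, 2.70 and 3.65 in the authors' deposited tables. Large ratios were thus not particular to genes at air-only peaks.

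**Figure D5:**
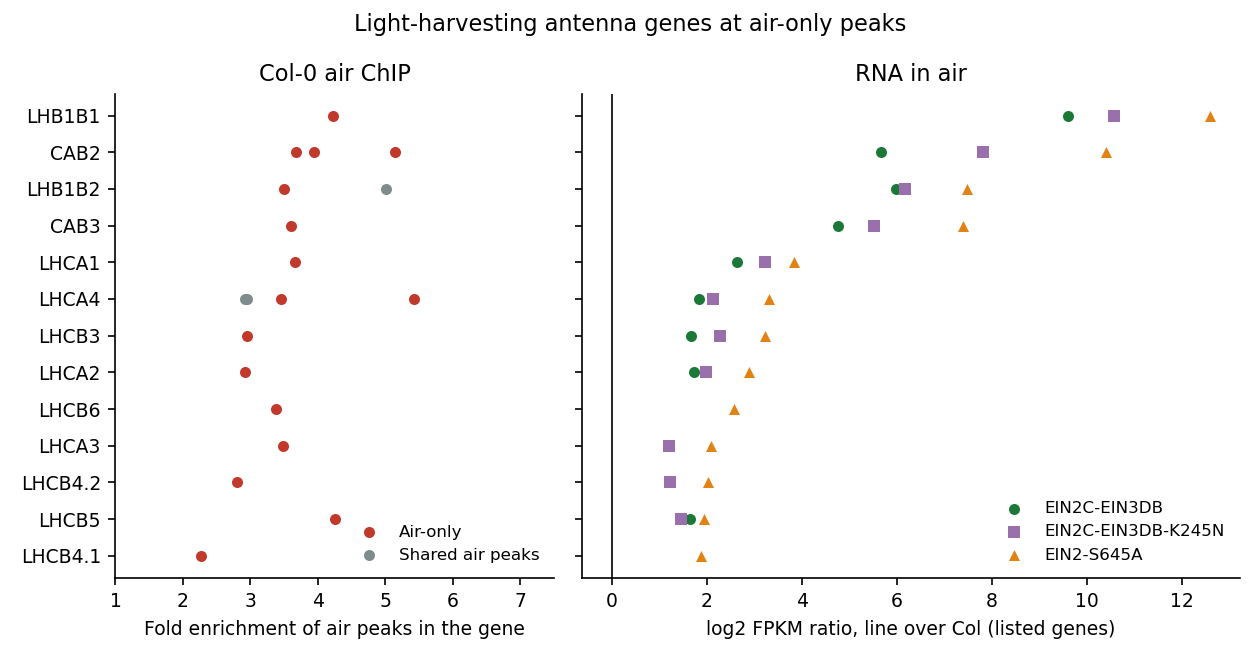
Left, the fold enrichment over local input of each Col-0 air peak inside the 13 antenna genes at air-only peaks, in red for air-only and grey for shared peaks. Right, the log2 FPKM ratio of each line over Col from the authors' deposited tables, for listed genes. Every listed ratio is above 0, from 1.22 for LHCA3 in EIN2C-EIN3DB-K245N to 12.58 for LHB1B1 in EIN2-S645A.

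Further photosynthesis genes were grouped in the same way, after the members were seen. Of 26 genes for photosystem subunits 5 (19.2%) were at an air-only peak and 0 at an ethylene-only peak: PSBP-1 with 2 peaks (3.29 and 3.13), PSAO (3.62), PSBW (3.09), PSBX (2.88, in the flank alone) and PSAL (2.76). Of the 5, 4 were listed higher in EIN2-S645A (log2 ratio 2.43 to 3.37) and 2 in EIN2C-EIN3DB-K245N, by the authors' deposited tables. Of the 21 photosystem genes without an air-only peak, 13 were also listed higher in EIN2-S645A in the authors' deposited table, so this direction is not particular to genes at air-only peaks. Of 5 genes for the Rubisco small subunit and its activase, RCA held 2 air-only peaks (4.81 and 3.72) and no ethylene peak, and RBCS1A held 1 air-only peak (3.76) beside 2 shared peaks of 6.95 and 5.73. RCA and RBCS1A were listed in none of the authors' deposited tables. RBCS1B, RBCS2B and RBCS3B went the other way, with ethylene-only peaks and no air-only peak. The authors' deposited tables list them lower in EIN2C-EIN3DB, at log2 ratios of -2.16, -1.24 and -1.57. RBCS1B and RBCS3B were also lower in EIN2C-EIN3DB-K245N, at -1.29 and -1.14. AT1G74470, the geranylgeranyl reductase gene that serves chlorophyll synthesis, held 2 air-only peaks (3.601 and 3.37). It was listed lower in all 3 lines, with log2 ratios of -1.64, -1.59 and -1.33 in the authors' deposited tables.

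Of 18 ethylene signalling genes 2, ETR1 and EIN3, were at air-only peaks, 5 at shared and 5 at ethylene-only peaks. Over all protein-coding genes these shares were 2.05%, 1.18% and 4.04%. ETR1, an ethylene receptor gene, held an air-only peak of fold enrichment 3.12 and pileup 12 (chr1:24737545-24737749) and no ethylene peak. EIN3 held air-only peaks of 2.99 and 3.57 (chr3:7260773-7260934 and chr3:7261318-7261405) and a shared air peak of 4.38, where the ethylene peak had 5.06. The fusion carries part of EIN3, and tags from the transgene and from the gene itself cannot be told apart. All 4 ein3-1 eil1-1 libraries had a peak in EIN3, of fold enrichment 1.62 to 2.39, where the implied input was 3.32 to 4.55 times the genome mean. At the Col-0 air-only peaks of EIN3 that ratio was 1.75 and 1.29.

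RNA of EIN3 and ETR1 was listed lower. EIN3 was listed at 38.2 FPKM in EIN2C-EIN3DB and 7.88 FPKM in EIN2-S645A, with log2 ratios of -2.06 and -3.97 in the authors' deposited tables. ETR1 was listed in EIN2-S645A alone, at 5.44 FPKM and a log2 ratio of -1.77 in the authors' deposited table. EIN3 was not listed in EIN2C-EIN3DB-K245N. The lines are in the ein3-1 eil1-1 background, so this RNA is not that of an intact EIN3 gene. Both fusion lines carry part of EIN3, and RNA of the transgene cannot be told apart from that of the gene.

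Of 28 EIN3 targets and ethylene response genes 0 were at an air-only peak, 7 at shared and 9 at ethylene-only peaks. At air-only peaks were also 0 of 12 ethylene synthesis genes, 0 of 10 auxin genes, 0 of 11 histone acetylation genes on a fixed list that did not hold ELO3, and 0 of 19 histone genes. At the 2.05% of all protein-coding genes, lists of this size can hold 0 without standing apart, and nothing is read from these counts. Of 16 light and photosynthesis genes 6 were: CAB2, CAB3, LHCB3 and RBCS1A, and the light signalling factors PIL5 (PIF1) and PIL6 (PIF5). The PIL5 peak (3.36) lay 97 bp outside the gene, and the PIL6 peak (2.88) inside it. PIL5 was listed lower in EIN2C-EIN3DB (log2 ratio -1.32), and PIL6 higher in EIN2C-EIN3DB-K245N and EIN2-S645A (1.44 and 1.07), in the authors' deposited tables.

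Of 4 plant-specific HD2 histone deacetylase genes, a group drawn up after the members were seen, 3 were at air-only peaks and none of the 3 had an ethylene peak. This count too stands beside 2.05% of all protein-coding genes. HDA3 (HD2A) held a peak of 3.54 inside the gene (chr3:16298479-16298584). Peaks lay 172 bp outside HD2C (2.58) and 15 bp outside HD2B (2.92), the latter inside the neighbour emb1211. HDA3 was listed higher in all 3 lines, at log2 ratios of 2.79, 1.25 and 1.41, and HD2B in EIN2C-EIN3DB at 1.24, in the authors' deposited tables. HD2C was listed in none of the authors' deposited tables. The fourth gene, HDT4, had no air-only peak but an ethylene-only peak, and was also listed higher, at 2.11 in EIN2C-EIN3DB and 2.21 in EIN2-S645A, in the authors' deposited tables.

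Cold-regulated, oleosin and brassinosteroid genes were likewise grouped after the members were seen, and their counts stand beside 2.05% of all protein-coding genes. Of 16 cold-regulated genes 6 were at air-only peaks: COR47, COR314-TM2, COR413IM1, CBF1, KIN2 and LTI65. COR314-TM2 and COR413IM1 lie side by side and share 1 peak of 2.24. CBF1, a regulator of cold response genes, had 2 peaks in its flanks, 394 and 607 bp away (2.33 and 2.73). The former has an implied input of 3.57 times the genome mean. The authors' deposited tables list 5, 4 and 4 of the 6 higher and 0 lower in the 3 lines, with KIN2 at log2 ratios of 3.29, 2.92 and 4.39. Of the 10 cold-regulated genes without an air-only peak, the authors' deposited tables list 7, 4 and 6 higher and 0, 0 and 1 lower, so the direction was shared by the group. Oleosin genes OLEO1 and OLEO2, 2 of 4, were higher in all 3 of the authors' deposited tables, by log2 ratios of 1.15 to 2.40. The peak of OLEO1 (2.76) lay in the flank alone. OLEO3, without an air-only peak, was lower in the fusion lines (-1.01 and -1.35) and OLEO4, also without one, higher in EIN2-S645A (5.05), in the authors' deposited tables. Of 29 genes of brassinosteroid synthesis and signalling 6 were at air-only peaks: BIN2 (2.71), BAK1 (2.50), BSK8 (2.47), CPD (2.71), DWF1 (2.90) and BEE3 (3.39). The peaks of BAK1, BSK8 and BEE3 lay in the flank alone. BEE3 was at -4.11 in EIN2C-EIN3DB and -1.94 in EIN2-S645A, as log2 ratios in the authors' deposited tables. In EIN2-S645A BSK8 was at -1.81 and CPD at 1.007, the only listed value above Col, in the authors' deposited table. Of the 23 without an air-only peak, 1, 1 and 2 were listed higher and 5, 2 and 8 lower in the authors' deposited tables.

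Outside the antenna, the genes listed higher in all 3 of the authors' deposited tables whose smallest ratio was largest were COR413IM1, KIN2, ENODL2, an early nodulin-like gene, THI1, a gene of thiamine synthesis, and AAPT1, an aminoalcoholphosphotransferase gene whose peak lay 621 bp outside it. THI1 had nearly equal ratios in the 3 lines, of 2.35, 2.38 and 2.38 on the log2 scale, in the authors' deposited tables. ENODL2 had 2.61, 3.23 and 3.498 and AAPT1 2.35, 2.39 and 3.20, as log2 ratios in the authors' deposited tables. AT4G13615, with no name in the annotation used, had 2.07, 2.06 and 4.52 in the authors' deposited tables, farthest from Col in EIN2-S645A. THI1 also had an ethylene peak in the gene or flank, and ENODL2, AAPT1 and AT4G13615 had none.

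Genes listed lower in all 3 were led by FAR1, a fatty acyl reductase gene of surface lipid synthesis, with log2 ratios of -3.19, -2.80 and -3.28 in the authors' deposited tables. KCS16, a very long chain fatty acid elongation gene, had -2.20, -2.12 and -2.65 in the authors' deposited tables. Both FAR1 and KCS16 held the air-only peak inside the gene (3.30 and 3.34) and also had an ethylene peak in the gene or flank. AT3G06070 (-2.20, -3.15 and -2.66) and AT1G27480 (-2.16, -2.91 and -2.77), the latter 689 bp from its peak, were listed lower in the authors' deposited tables and had no ethylene peak. AT1G03990, AT5G53150, AT1G73066, ERD3, RIBA3, which is related to riboflavin synthesis genes, and emb1211 completed these 10, with ratios from -1.39 for emb1211 in EIN2C-EIN3DB to -4.32 for AT1G73066 in EIN2-S645A in the authors' deposited tables. None of these 10 was above 30.1 FPKM in any line in the authors' deposited tables.

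Further genes far from Col were found in 1 or 2 lines. FLP1, whose peak lay 963 bp away, was at -3.30 and -1.37 in EIN2C-EIN3DB and EIN2C-EIN3DB-K245N, and AT1G60060 at -2.82 and -3.19, as log2 ratios in the authors' deposited tables. EFR, an immune receptor gene 345 bp from its peak, was at -2.96 and -2.69 in EIN2C-EIN3DB-K245N and EIN2-S645A, and SAB at -2.94 in EIN2-S645A, in the authors' deposited tables. AT1G53690 was listed at 0 FPKM for EIN2C-EIN3DB-K245N by the authors' deposited table, so no ratio is given for it.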

How the data were processed

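Members, gene lists and the rule for named genes were chosen with earlier results of these data known; groups drawn up later are named as such in the text. For each library the authors called peaks over its input (MACS2 2.1.0.20150603, p threshold 0.001, genome size 119000000 bp, 1 tag kept per position), per the file headers. The deposited lists give the pileup signal at the summit, −log10 p and −log10 q, and the fold enrichment, a ratio over the local input, per the file headers. A comment line of the same deposited lists states that no q was computed; values do stand in the −log10 q column, which was read by its name. The build is TAIR10, per the submitters' processing notes; the sources read name BWA without its role. The deposited RNA tables hold the authors' FPKM per line, log2 ratio, p-value and q-value from Cuffdiff 2.2.1, per the file headers and the submitters' processing notes. The K245N table lists the line as its first group, and its ratios were turned to line over Col. The 3 Col columns belong to no sample here and were not used.

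Peaks on chromosomes 1 to 5 were compared by overlap of at least 1 bp, and 1-based coordinates are those of the files. Genes came from the RefSeq table of TAIR10.1, of which no coordinate is printed; 98.9% of listed RNA identifiers were found there. It holds no strand, so the flank is 1000 bp on either side. The implied input is (pileup + 1) / fold − 1, over the genome mean pileup. Binomial intervals are exact (Clopper-Pearson, 95%) and treat peaks and genes as independent, which neighbours are not. No test was run: Col-0 has 1 library per condition, and the RNA replicates were pooled by the authors. The depth of the RNA libraries is unknown. Named genes are the 15 peaks of highest fold, the 5 widest, those nearest the overlap limit, those in both ein3-1 eil1-1 air replicates, list members, and the genes with the largest ratios per table or, up to 10 per direction, the largest smallest ratio over all 3. Overlap functions were tested on simulated intervals against bedtools. Tables were made with pandas 2.3.3 and scipy 1.17.1. No sequence or motif is given, because no genome was used here.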

Additional observations from a re-analysis of the deposited data

Results flagged for a closer look

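Among protein-coding genes at air-only peaks, AT1G09750 and EXT12 were listed in opposite directions in 2 of the authors' deposited tables. AT1G09750, with an air-only peak of fold enrichment 3.44 inside the gene, had a log2 ratio to Col of -1.16 in EIN2C-EIN3DB and 1.29 in EIN2-S645A, at 84.1 and 356 FPKM. EXT12, an extensin gene with a peak 785 bp away, had -1.40 and 1.33. The difference between lines was not tested, and both ratios share Col.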

How the results depend on the processing

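Of 60 alternative values for 12 results, 35 stayed near the reported one (within 1.5 times for a count, within its 95% binomial interval for a share or median) and 25 moved. The 436 air-only peaks became 189 at an air −log10 p of at least 5 and 3 at a fold enrichment of at least 5; the median fold enrichment of 3.11 became 3.46 at that −log10 p. The share at a gene, 94.7%, was 78.4%, 90.1% and 97.9% with flanks of 0, 500 and 2000 bp, and 89.9% for protein-coding genes alone. The share found in an ein3-1 eil1-1 air replicate, 1.83%, was 5.73% within 500 bp, and 0.917% to 1.15% when either replicate was left out. Gene counts are given higher then lower for EIN2C-EIN3DB, EIN2C-EIN3DB-K245N and EIN2-S645A. A fold limit of 4 left 21 and 14, 24 and 12, and 52 and 25. As shares of the genes at air-only peaks these were 3.73% and 2.49%, 4.26% and 2.13%, and 9.24% and 4.44%. All protein-coding genes gave 2.88% and 1.67%, 1.59% and 1.27%, and 5.23% and 4.18%. At this limit the lower share in EIN2-S645A was thus near that of all protein-coding genes. The −log10 p of 5 left 27 and 37, 25 and 15, and 47 and 35. With no flank, the counts that moved were 54 and 25 lower in the fusion lines, and 73 higher and 57 lower in EIN2-S645A. A line FPKM of at least 5 left 63 lower in EIN2-S645A (11.2%, against 6.17% of all protein-coding genes). Those alternatives take fewer peaks or genes. As shares of the genes left at a −log10 p of 5, higher calls were 11.7%, 10.9% and 20.4%, and lower calls 16.1%, 6.52% and 15.2%. Over all protein-coding genes higher calls were 9.93%, 6.41% and 11.8%, and lower calls 9.7%, 6.33% and 13.9%. The count of 13 antenna genes stayed within 1.5 times in alternatives chosen after seeing the data: 9 at an air −log10 p of at least 5 and 9 at a −log10 q of at least 2, 12 where an ethylene peak within 500 bp counts as shared, and 13 with no flank or without peaks of high input. No paired analysis was possible because no result comes from a test. With 4713282 tags in the 1 ethylene library, a missing ethylene peak cannot be told apart from a peak just under the authors' threshold.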
